A study of Mus musculus with 8 samples.

Results

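The genes described here were 10 transcriptional outputs of the ERK MAP kinase pathway, measured by RNA-seq in mouse tumors grown from cells with or without a working Il6 gene. The members were Dusp4, Dusp5, Dusp6, Spry1, Spry2, Spry4, Spred1, Etv1, Etv4 and Etv5, found by gene symbol, and they made up 10 of the 27179 rows of the tumor table. All 10 passed the filter for low values, as did 13262 rows in all. The series compared tumors of cxC26 cells, a cachexia-inducing line of the C26 (colon 26) mouse colon carcinoma, with tumors of a knockout of the cytokine gene Il6 made by CRISPR/Cas9 in the same cells. The 4 cxC26 scr tumors came from cells that received a scrambled guide RNA and that the labels call wild type. The 4 cxC26 IL-6 KO s1 tumors came from knockout subclone 1, a single clone, so that a difference between the groups cannot be told apart from a property of this clone. Both were grown under the skin of male CD2F1 mice, which were adult by the age range in weeks that the study's methods give for all its mice. The tumors were taken once the mice had become cachectic, on a day that the labels do not give. In the study's flow cytometry experiment, mice with the subclone reached that stage later than mice with cxC26 scr cells. The age of the sequenced tumors may thus differ between the groups, and its part was not tested. The knockout was in the implanted cells only. The cxC26 scr tumors are called control tumors from here on, and those of the subclone knockout tumors. The study's methods give a larger inoculum for the subclone than for the control cells in the growth experiments, and the inoculum of the sequenced tumors is not given in the sources used here.

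Growth factor receptors signal through Ras, Raf and MEK to the kinase ERK, and active ERK switches on genes that act back on the pathway. The dual-specificity phosphatases remove the activating phosphates from MAP kinases. The Sprouty and Spred proteins restrain the steps between the receptors and Raf. Etv1, Etv4 and Etv5 form the PEA3 group of ETS transcription factors, which relay growth factor and FGF signals in development and in many carcinomas. Members of these families are often read together as a record of ERK output.

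Each tumor yielded between 14158989 and 17048062 reads on genes, and a member had between 293 and 4382 reads in a tumor. Levels are given as log2 CPM, the log2 of reads scaled to a common library size, and a difference is the knockout mean minus the control mean with its standard error (SE). A gene is said to have risen or fallen where limma gave an adjusted p under 0.05 over all tested genes. For Il6, the gene targeted, 356, 326, 376 and 438 reads were counted in control tumors 1 to 4 and 64, 56, 86 and 59 in knockout tumors 1 to 4, with no overlap between the groups. Of all tested genes 19.1% rose and 20.7% fell, so a call on a single member was not rare among genes at large. The tumors hold host cells besides cancer cells, and fewer cells of a type and less RNA per cell cannot be told apart in such bulk samples. Nothing in the labels states that the tumors came from separate mice, and the p-values then measure only the spread between these samples.

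Of the 10 members, 5 fell in the knockout tumors, 1 rose and 4 did not pass the test. Dusp4, Spry4, Spred1, Etv1 and Etv4 were lower and Spry1 was higher, while Dusp5, Dusp6, Spry2 and Etv5 were not called. The members that fell thus came from each of the 4 families, and every family except Spred, which had 1 member here, also held genes that did not fall. The share that fell, 50%, stood beside 20.7% of all tested genes, and the share that rose, 10%, beside 19.1%. The median difference of the members was -0.26 (log2) against -0.00289 for all tested genes, and the median size of the difference regardless of direction was 0.45 against 0.30. In 5 members every knockout tumor lay below every control tumor, which also held for 19.3% of tested genes, and in 0 members did every knockout tumor lie above, which held for 17.8% of tested genes.

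**Figure D1:**
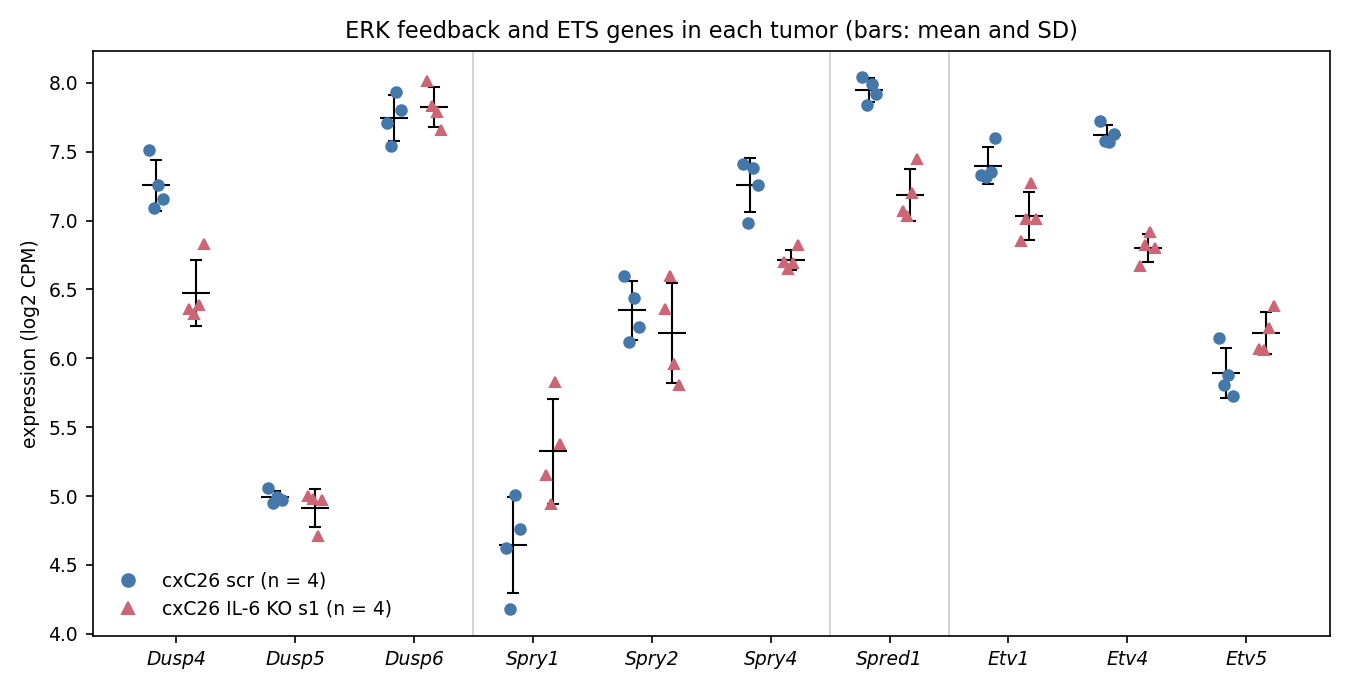
Level of the 10 members in each of the 8 tumors, in log2 CPM on the vertical axis, with 1 point per tumor (circles for cxC26 scr, triangles for cxC26 IL-6 KO s1) and bars for each group's mean and SD. The groups lie apart for Dusp4, Spry4, Spred1, Etv1 and Etv4 and overlap for the other members, including Spry1.

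Among the phosphatases, Dusp4 fell and Dusp5 and Dusp6 did not pass the test. Dusp4 encodes a nuclear phosphatase that acts on ERK, JNK and p38, and it lies on chromosome 8 at 34807610 to 34819894 on the plus strand (GRCm38). Dusp4 was at 7.51, 7.09, 7.26 and 7.16 log2 CPM in the control tumors and at 6.36, 6.32, 6.39 and 6.83 in the knockout tumors. The groups did not overlap, although knockout tumor 4 came closer to the controls than the other knockout tumors. The mean dropped from 7.26 ± 0.18 to 6.47 ± 0.24 log2 CPM (SD, n = 4 each), a difference of -0.78 ± 0.13 (SE, limma adjusted p = 0.000614), which left 58.1% of the control level.

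Dusp5, on chromosome 19 at 53529145 to 53541809 on the plus strand, encodes an inducible phosphatase of the nucleus that is selective for ERK. Its levels in the control tumors were 5.06, 4.95, 4.99 and 4.97 log2 CPM, and those in the knockout tumors were 5.0, 4.98, 4.71 and 4.97. Apart from knockout tumor 3, the tumors of both groups shared the same narrow range. The difference of -0.08 had a 95% interval from -0.29 to 0.14 (limma adjusted p = 0.557), so a fall as large as that of Dusp4 lay outside it.

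Dusp6, on chromosome 10 at 99263231 to 99267489 on the plus strand, encodes a cytoplasmic phosphatase that is selective for ERK and is widely used as a readout of the pathway. It measured 7.71, 7.54, 7.93 and 7.80 log2 CPM in the control tumors against 8.01, 7.83, 7.79 and 7.66 in the knockout tumors, and the groups overlapped over most of their range. The difference was 0.08, with a 95% interval from -0.15 to 0.30 (limma adjusted p = 0.590). Dusp6 overlaps the RefSeq gene Gm34921, and as the library kit does not mark strand, reads from any stretch both share cannot be told apart. How much of their exons is shared was not examined. No other member overlapped a RefSeq gene.

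Among the Sprouty genes, Spry1 rose, Spry4 fell and Spry2 did not pass the test. Spry1, Spry2 and Spry4 encode adaptor-like inhibitors that are induced by growth factors and dampen receptor tyrosine kinase signaling to Ras. Spry1, on chromosome 3 at 37639947 to 37644599 on the plus strand, was at 4.62, 4.18, 5.01 and 4.76 log2 CPM in the control tumors and at 5.15, 4.94, 5.83 and 5.38 in the knockout tumors. Knockout tumor 2 lay below control tumor 3, so the groups overlapped, and both had a wider SD than for any other member. The mean rose from 4.64 ± 0.35 to 5.33 ± 0.38 log2 CPM (SD, n = 4 each), by 0.68 ± 0.20 (SE, limma adjusted p = 0.0186) or 1.61-fold, whereas the exact permutation test of Spry1 alone gave a two-sided p of 0.0571. This call was lost without control tumor 2 (0.53, limma adjusted p = 0.0551), without knockout tumor 3 (0.52, limma adjusted p = 0.0533) and without the filter for low values (limma adjusted p = 0.0669).

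Spry2, on chromosome 14 at 105891947 to 105896819 on the minus strand, did not pass the test. The control tumors gave 6.60, 6.12, 6.44 and 6.23 log2 CPM and the knockout tumors 6.36, 6.60, 5.96 and 5.81. One knockout tumor matched the highest control tumor and the lowest 2 tumors were also knockout tumors. The difference was -0.16, with a 95% interval from -0.53 to 0.20 (limma adjusted p = 0.453).

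Spry4, on chromosome 18 at 38586247 to 38601347 on the minus strand, fell. Its levels were 7.41, 6.98, 7.38 and 7.26 log2 CPM in the control tumors and 6.70, 6.65, 6.69 and 6.82 in the knockout tumors. The knockout tumors lay close together and below every control tumor. The mean went from 7.26 ± 0.20 to 6.72 ± 0.07 log2 CPM (SD, n = 4 each), a difference of -0.54 ± 0.10 (SE, limma adjusted p = 0.00143), or 68.8% of the control level.

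Spred1 encodes the Sprouty-related protein that binds neurofibromin and brings it to the membrane, where neurofibromin switches Ras off. Spred1 lies on chromosome 2 at 117121071 to 117182279 on the plus strand. It measured 8.04, 7.84, 7.99 and 7.92 log2 CPM in the control tumors and 7.07, 7.03, 7.20 and 7.45 in the knockout tumors. The highest knockout tumor was well below the lowest control tumor. The mean went from 7.95 ± 0.09 to 7.19 ± 0.19 log2 CPM (SD, n = 4 each), a difference of -0.76 ± 0.10 (SE, limma adjusted p = 0.000173), which left 59.0% of the control level.

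The promoters of Dusp6 and Spred1 are shown because Spred1 fell and Dusp6 did not pass the test. They were also the only matched members whose promoter window held CGGAAG, the shorter ETS motif searched. Shorter or variant forms of the ETS motif were not searched, so the other windows may hold them. RefSeq promoter windows on GRCm38.p6 held the 250 bases before the start and 50 bases from the start on. They were given for 7 of the 10 members, with Dusp4, Spry4 and Etv4 without an entry. Etv1 and Etv5 had 2 windows each, which made 9 windows. The letters CGGAAG, searched on both strands, occurred in 2 of the 9 windows. Matches began 62 bases before the start of Dusp6, 17 before that of Spred1 and at position 8 of Spred1, with the start base counted as the first. The letters CGGAAG also occurred in 16.9% of all 32851 windows and in 29.9% of the 12868 windows of tested genes. The 250 bases before each start are printed 5′ to 3′ on the gene's strand, with the match in capitals as CGGAAG or as its reverse complement. For Dusp6 they cover chr10:99262981-99263230 on the plus strand and for Spred1 chr2:117120821-117121070 on the plus strand.
Dusp6: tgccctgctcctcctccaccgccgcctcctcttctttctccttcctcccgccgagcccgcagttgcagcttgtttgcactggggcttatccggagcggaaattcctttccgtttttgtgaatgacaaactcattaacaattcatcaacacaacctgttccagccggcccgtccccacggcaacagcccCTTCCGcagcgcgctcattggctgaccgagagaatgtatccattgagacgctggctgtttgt
Spred1: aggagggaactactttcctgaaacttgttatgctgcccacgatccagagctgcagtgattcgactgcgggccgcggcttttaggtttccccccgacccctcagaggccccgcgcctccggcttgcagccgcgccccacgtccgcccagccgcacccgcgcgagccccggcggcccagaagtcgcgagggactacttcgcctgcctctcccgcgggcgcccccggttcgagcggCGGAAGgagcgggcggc
The printed bases of Spred1 were the richer in G and C, at 70.8% against 56.4% for those of Dusp6. The longer ETS motif CCGGAAGT, the AP-1 motif TGANTCA, the CRE motif TGACGTCA and the STAT motif TTCNNNGAA, each searched on both strands, were found in 0 of the 9 windows. CCGGAAGT includes the CGGAAG letters, so those motifs overlap. In all windows the same motifs occurred in 3.89%, 7.81%, 1.79% and 8.30%, in that order. In the windows of tested genes they occurred in 7.8%, 5.5%, 2.9% and 6.8%. A match is a description of the letters, and a missing match says only that they are absent from this window.

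Among the PEA3 factors, Etv4 fell most clearly, Etv1 fell less and Etv5 did not pass the test. Etv4, on chromosome 11 at 101769747 to 101785310 on the minus strand, was at 7.72, 7.58, 7.57 and 7.63 log2 CPM in the control tumors and at 6.67, 6.82, 6.92 and 6.80 in the knockout tumors. The tumors of each group lay within a narrow band and the bands were far apart. The mean went from 7.62 ± 0.07 to 6.80 ± 0.10 log2 CPM (SD, n = 4 each). The difference of -0.82 ± 0.08 (SE) left 56.6% of the control level and had the smallest adjusted p of the 10 members (limma, 2.21e-05).

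Etv1, on chromosome 12 at 38780082 to 38870483 on the plus strand, encodes a PEA3 factor also known from prostate cancer gene fusions. Etv1 measured 7.33, 7.32, 7.35 and 7.60 log2 CPM in the control tumors against 6.85, 7.01, 7.27 and 7.01 in the knockout tumors. The groups just failed to touch, since the highest knockout tumor lay a little under the lowest control tumor. The difference was -0.36 ± 0.10 (SE, limma adjusted p = 0.0150), and without control tumor 4, the highest, it was -0.30 and no longer passed (limma adjusted p = 0.0519).

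Etv5, on chromosome 16 at 22381313 to 22439570 on the minus strand, went in the other direction without passing the test. Its levels were 6.15, 5.81, 5.88 and 5.73 log2 CPM in the control tumors and 6.07, 6.06, 6.22 and 6.38 in the knockout tumors, and the groups overlapped through control tumor 1. The difference was 0.29, with a 95% interval from 0.04 to 0.53 (limma adjusted p = 0.0588). Without control tumor 1 it passed (0.37, limma adjusted p = 0.0139), as it did without knockout tumor 1 (0.32, limma adjusted p = 0.0490) and after quantile normalization (0.34, limma adjusted p = 0.0284).

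**Figure D2:**
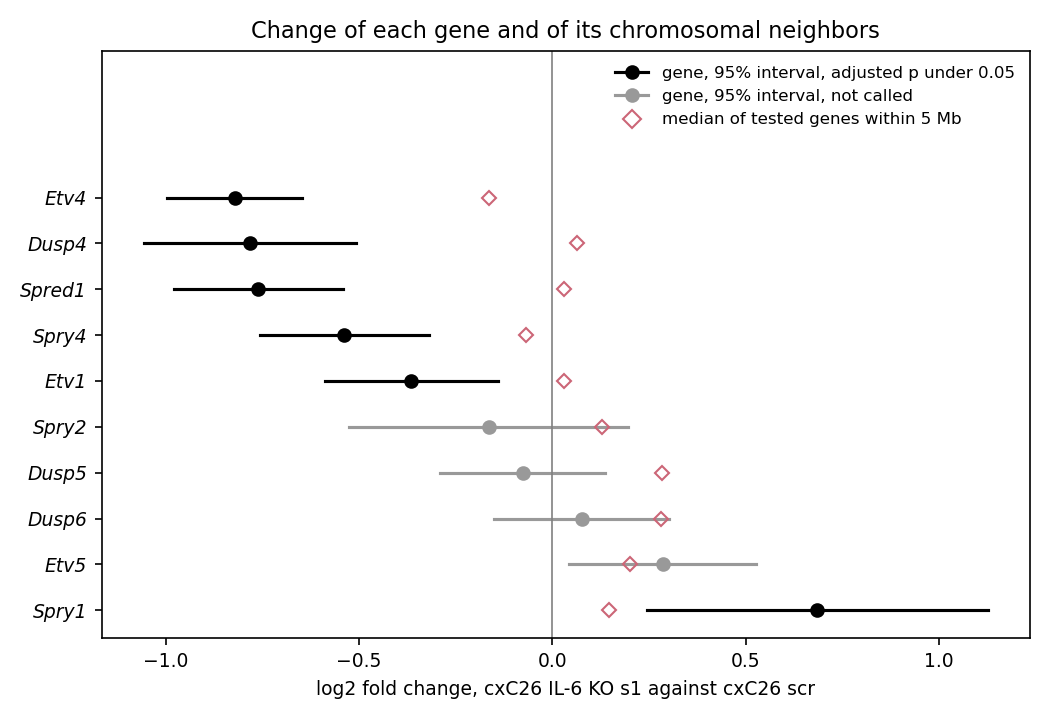
Difference of each member, cxC26 IL-6 KO s1 minus cxC26 scr, in log2 units on the horizontal axis, as a point with its limma 95% interval (black where called, grey where not) and with an open diamond at the median of the other tested genes within 5 Mb. The intervals of Etv4, Dusp4, Spred1, Spry4 and Etv1 lie below 0, while those of Dusp5, Dusp6 and Spry2 include 0. Those of Spry1 and Etv5 lie above 0, and Etv5 is grey because its adjusted p did not pass.

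Since a call on one gene and none on another does not show that they differ, the balance between family members was tested directly. For each of the 9 pairs within the Dusp, Spry and Etv families the level of one member minus that of the other was taken within each tumor, and groups were compared by the two-sided exact permutation test, adjusted by the Benjamini-Hochberg method over the 9 pairs. In 6 pairs the groups did not overlap, and each had a permutation p of 0.0286, the smallest that 4 against 4 tumors allow (adjusted p = 0.0429). Pairs share genes and are not independent. Etv4 minus Etv5 went from 1.73 to 0.62 (change -1.11, log2), and Etv1 minus Etv5 from 1.50 to 0.85. Etv1 minus Etv4 changed sign, from -0.22 to 0.23, so that Etv1 had more reads than Etv4 in the knockout tumors and fewer in the controls.

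Within the phosphatases, Dusp4 minus Dusp6 went from -0.49 to -1.35 and Dusp4 minus Dusp5 from 2.26 to 1.56. For Dusp5 minus Dusp6 the groups overlapped, with a change of -0.15 (exact permutation p = 0.229, adjusted p = 0.229). The largest shift of the 9 pairs was that of Spry1 minus Spry4, from -2.61 to -1.39 (change 1.22). The other two Sprouty pairs did not pass, with changes of 0.85 for Spry1 minus Spry2 (exact permutation p = 0.0857, adjusted p = 0.110) and 0.37 for Spry2 minus Spry4 (exact permutation p = 0.143, adjusted p = 0.161). With p-values at the limit of the test, leaving out any one of the control tumors, knockout tumor 1 or knockout tumor 3 brought the number of pairs that passed from 6 to 0, with 4 or 5 pairs at an unadjusted p under 0.05 and the direction of all 6 kept.

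**Figure D3:**
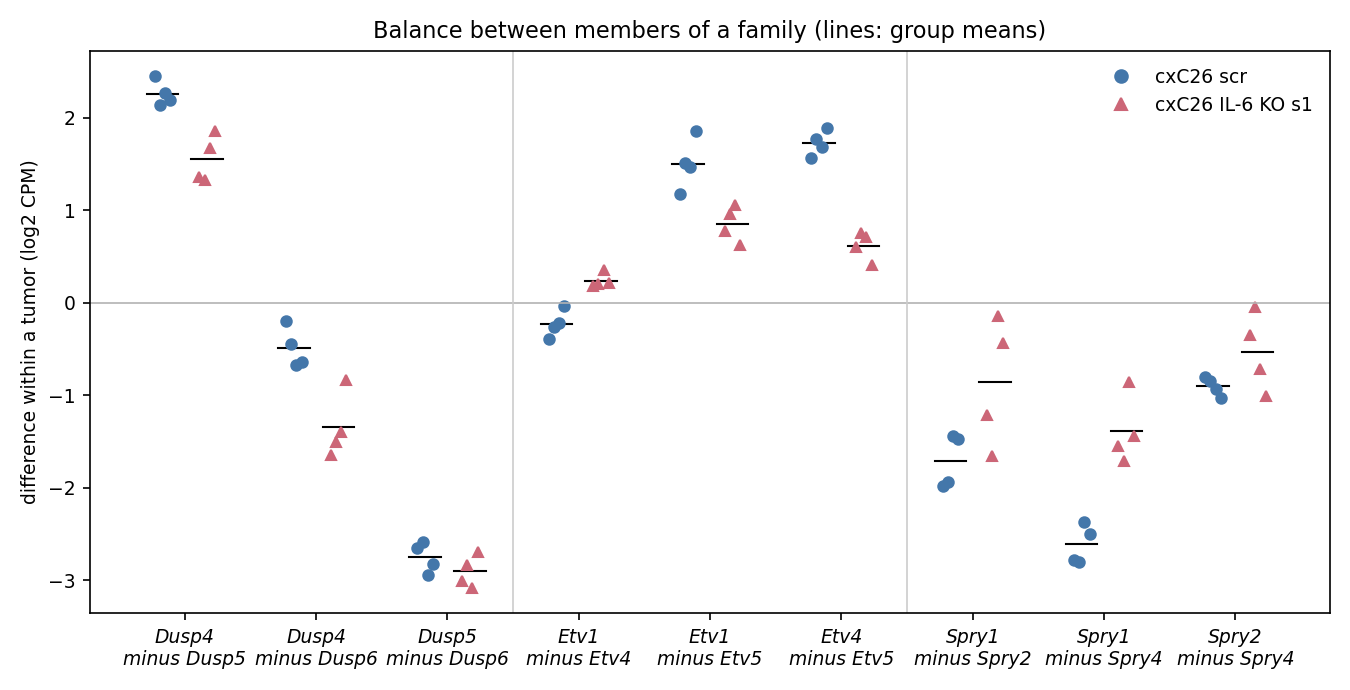
Balance between members of a family in each tumor, as the difference of their log2 CPM on the vertical axis, 1 point per tumor and a line at the group mean, for the 9 pairs. The groups lie apart in 6 pairs, among them Spry1 minus Spry4 (-2.61 to -1.39) and Etv4 minus Etv5 (1.73 to 0.62).

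Levels of different genes were compared per length, as CPM per kb of the longest GENCODE M21 transcript. In the control tumors Etv4 was highest at 82.4 CPM per kb, followed by Dusp6 at 77.1, and their ranges over the tumors overlapped. Dusp4 came next at 56.1, below every Dusp6 value and above every Spred1 value (mean 41.1). Spred1, Spry2 (39.4), Spry4 (32.4) and Etv1 (25.8) overlapped, each with the next, and Etv1 stood above Etv5 (15.1), which overlapped Dusp5 (12.9). Spry1 was lowest at 9.20 CPM per kb, below every Dusp5 value.

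In the knockout tumors Dusp6 was alone at the top, at 81.2 CPM per kb, above every value of Etv4 (46.7). Spry2 (35.7) and Dusp4 (32.8) followed, and Dusp4 lay above Spred1 (24.4) without overlap. From Spred1 down to Dusp5 each gene overlapped the next, with Spry4 at 22.2, Etv1 at 20.1, Etv5 at 18.3, Spry1 at 14.9 and Dusp5 at 12.3 CPM per kb.

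Other genes of the pathway were taken from 5 lists, of which 71 of 80 genes were tested. Of these 71 genes, 12 rose, 26 fell and 33 did not pass the test, beside 19.1% and 20.7% of all tested genes. Dusp1, Errfi1 and Spred2 each stood in 2 of the lists and were counted once here. The list closest to the members in function, 13 other restrainers of Ras and ERK, had 12 tested genes, of which 8 fell and 1 rose, with a median difference of -0.64 (log2). Its largest fall was that of Il17rd, or Sef, an inhibitor of FGF signaling (-1.89 ± 0.16, SE, limma adjusted p = 7.85e-06). Errfi1, an inhibitor of the EGF receptor and the gene of the list with the highest mean log2 CPM over all 8 tumors, fell as well (-0.70, limma adjusted p = 0.000874), and Lgals3 rose (1.35, limma adjusted p = 7.50e-05), whose product galectin-3 is better known as a partner of active K-Ras than as a restrainer. Spred2 and Spred3, the other two Spred genes, named after their values were seen, fell by 0.70 and 1.09 on the log2 scale (limma adjusted p = 0.00104 and 0.000153), so that all 3 genes of that family were lower. Spry3 was listed without reads in every tumor and was not tested.

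Of the 21 genes of the ERK cascade core, from receptors to kinases, 3 rose, 5 fell and 13 did not pass. Among all tested genes the shares that rose and fell were 19.1% and 20.7%. The median difference of the core was -0.07. The largest fall was that of Egfr, the EGF receptor. Egfr was at 5.43, 5.27, 5.50 and 5.56 log2 CPM in the control tumors and at 2.14, 1.78, 2.37 and 2.06 in the knockout tumors, a gap far wider than the spread of either group (-3.35 ± 0.14, SE, limma adjusted p = 1.02e-07). Shoc2, a scaffold for Raf activation, rose (0.65, limma adjusted p = 0.00124). Mapk3, which encodes ERK1 and had the highest mean log2 CPM of the list, had a difference of -0.19 (limma adjusted p = 0.129).

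Among 20 other genes known as ERK outputs, 19 were tested, of which 3 rose and 8 fell (median difference -0.06). The shares of all tested genes were 19.1% and 20.7%. Areg, which encodes the EGF receptor ligand amphiregulin, was at 6.88, 6.90, 6.78 and 6.56 log2 CPM in the control tumors and at 1.35, 4.29, 2.78 and 2.53 in the knockout tumors. The knockout tumors were all lower and differed widely among themselves (-4.04 ± 0.44, SE, limma adjusted p = 5.38e-05). Epha2, an ephrin receptor, rose (0.82, limma adjusted p = 0.000229), and Emp1, with the most reads of the list, had a difference of 0.02 (limma adjusted p = 0.894). Epha4 did not reach the filter.

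Calls among the remaining relatives of the members went in both directions, as they did for 19.1% (higher) and 20.7% (lower) of all tested genes. Of 7 other MAP kinase phosphatases, 3 rose and 3 fell (median difference -0.12), with Dusp10, which acts on p38 and JNK, up by 1.01 (limma adjusted p = 0.000682) and Dusp2, a nuclear phosphatase of immune cells, down (-1.25, limma adjusted p = 0.000435). Dusp7, a cytoplasmic ERK phosphatase and the one with the highest mean log2 CPM over all 8 tumors, had a difference of -0.12 (limma adjusted p = 0.250). Of 22 other ETS factors 15 were tested, of which 3 rose and 4 fell (median difference 0.05). Elk4, a ternary complex factor that ERK phosphorylates, fell (-0.92, limma adjusted p = 0.000464), and its relative Elk3, with the most reads, rose (0.32, limma adjusted p = 0.0195). The groups overlapped for Elk3, with control tumor 1 at 8.11 and knockout tumor 4 at 8.10 log2 CPM. Spi1, the myeloid factor PU.1, rose most of these ETS factors (1.48, limma adjusted p = 9.17e-05).

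**Figure D4:**
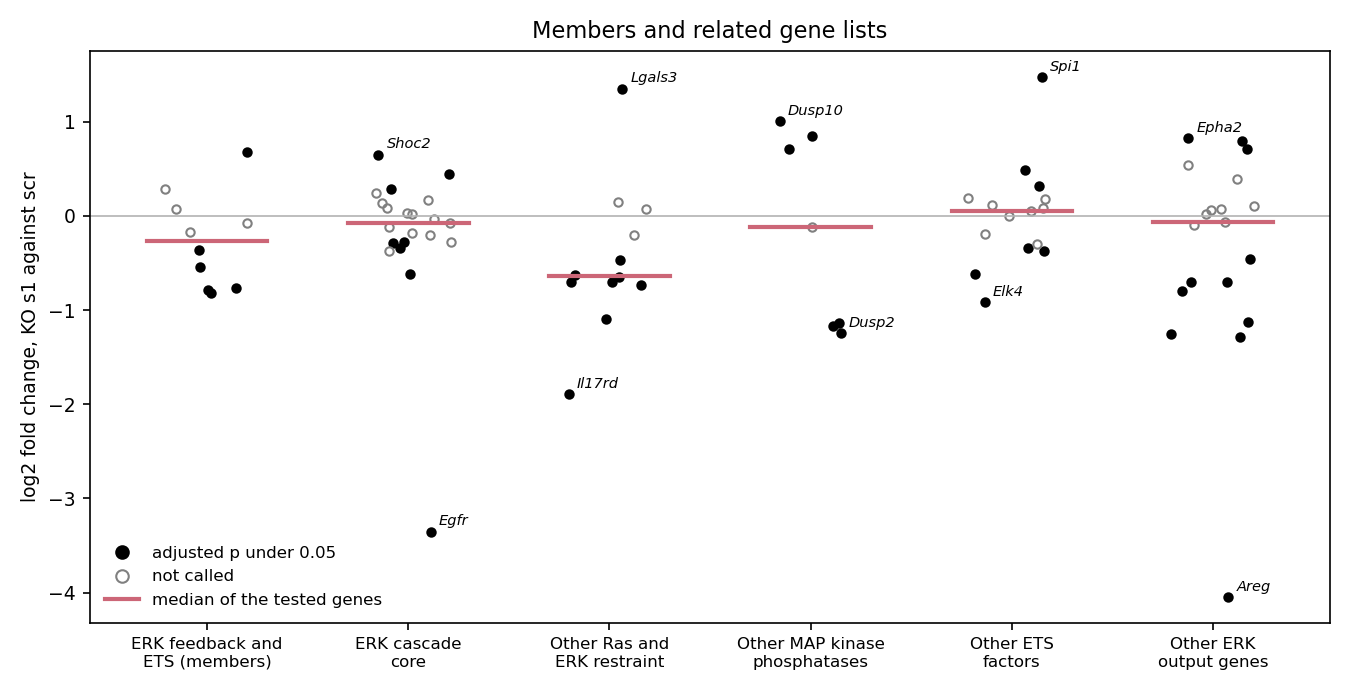
Differences of the tested genes of the members and of the 5 related lists, cxC26 IL-6 KO s1 minus cxC26 scr, in log2 units on the vertical axis, with 1 point per gene (filled where called) and a line at each list's median. The other restrainers of Ras and ERK have the lowest median of the related lists (-0.64), and Areg (-4.04) and Egfr (-3.35) lie lowest.

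Markers of other cells moved with the comparison, beside 19.1% of all tested genes that rose and 20.7% that fell. All 6 leukocyte markers rose, from a summed level of 178 to 202 CPM in the control tumors to one of 304 to 640 CPM in the knockout tumors, as did all 8 macrophage markers (715 to 952 against 1527 to 2594 CPM). The 6 tested of 8 T and NK cell markers rose (2.39 to 4.63 against 12.6 to 26.6 CPM), as did the 5 tested of 6 mast cell markers (9.14 to 13.1 against 24.0 to 142 CPM). Of these T and NK cell markers, Cd3g, Cd8a, Nkg7 and Trac were under 1 CPM in every control tumor. They passed the filter only through the knockout tumors, so a rise was the only call open to them. Of 8 endothelial markers 0 rose and 1 fell by limma (108 to 166 against 119 to 149 CPM), and 0 rose at an unadjusted p under 0.05. Of 10 mesenchymal markers 2 rose and 5 fell (11273 to 15359 against 10646 to 13645 CPM). No marker was without reads in all tumors. The part of these markers in the members' differences was not tested.

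The labelled colon carcinoma origin was checked against 10 epithelial markers, of which 5 passed the filter. Epcam, Krt8, Krt19, Vil1 and Muc2 did not, while Krt20, a keratin of the colon epithelium, was at 10.20 log2 CPM in the control tumors and 10.42 in the knockout tumors and was not called (limma adjusted p = 0.102). Of the 5 tested markers 2 rose and 1 fell, beside 19.1% and 20.7% of all tested genes. Krt18, another keratin, rose by 3.20, from 0.67 to 3.87 log2 CPM (limma adjusted p = 3.02e-06), and Cdh1, the E-cadherin gene, by 1.46, from 0.65 to 2.11 (limma adjusted p = 0.00251). Cdx2, a transcription factor of the intestine, fell (limma adjusted p = 4.18e-05), from 0.76 log2 CPM in the control tumors to below the level of 3 reads in every knockout tumor. Cdx2 passed the filter only through the control tumors, so a fall was the only call open to it. The summed level of the 10 markers, 1087 to 1296 CPM against 1333 to 1455 CPM, was largely that of Krt20.

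Chromosomes also differed as wholes, and the median difference of the tested genes on a member's own chromosome was 0.32 for Dusp6, 0.33 for Dusp5, 0.18 for Spry1, 0.17 for Etv5 and 0.11 for Spry2. For the members that fell it lay between -0.15 for Etv4 and 0.07 for Etv1. With each chromosome's median subtracted, Dusp4, Spry4, Spred1, Etv1 and Etv4 still fell. Dusp5 then fell as well (-0.45, limma adjusted p = 0.00417), Dusp6 turned from 0.08 to -0.28 (limma adjusted p = 0.0473), and Spry1 no longer passed (0.52, limma adjusted p = 0.0920). On that scale 0 of the 9 balance pairs passed, with 4 at an unadjusted permutation p under 0.05. Among the tested genes within 5 Mb of a member the median difference was 0.28 for both Dusp5 and Dusp6, 0.15 for Spry1, 0.20 for Etv5 and 0.13 for Spry2, and between -0.16 (Etv4) and 0.06 (Dusp4) for the members that fell.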

How the data were processed

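Bulk RNA-seq of 8 tumors, 4 cxC26 scr and 4 cxC26 IL-6 KO s1, grouped and numbered by their titles, was analysed. Per the study's methods, the authors used Trimmomatic for trimming, Hisat2 for alignment to mm10 and featureCounts for counting. The submitters' processing notes name bcl2fastq 2.17, HISAT2 and limma. The deposited values are log2 CPM from limma-voom, with an offset of 0.5 reads and of 1 read in the library size. Annotation and strand setting are not given in the sources used here. Inverting the offset gave whole reads for 100% of values (tolerance 0.01 reads), from which totals of 14158989 to 17048062 per tumor were taken. These totals limit low genes most.

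Genes that reached 1 CPM in 4 or more tumors were fitted with limma 3.58.1 in R 4.3.3 (lmFit, eBayes with trend) on the deposited log2 values, without covariates, with Benjamini-Hochberg adjustment over all 13262 genes and a threshold of 0.05. Single values were also compared by the two-sided exact permutation test. Motifs were counted in RefSeq promoter windows (GRCm38.p6), of which 12868 belonged to 10121 tested genes. Scripts were tested on simulated data. The text names all members, Il6 and, from each pathway list, the gene of highest mean and the largest called rise and fall. Spred2 and Spred3 were added after their values were seen. The members and lists were chosen with earlier results of these data known. Alternatives covered the filter, normalization, centring, pseudocount, weights, variance trend, replicate block, chromosome medians, a 2-fold minimum and leaving out each tumor.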

Additional observations from a re-analysis of the deposited data

Results flagged for a closer look

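In 4 of 22 groups of tumors examined, each gene of the members or Il6 in each group of 4, the highest or lowest tumor stood apart by a gap above Dixon's 95% limit, taken as a share of the group's whole range, where chance alone would give about 1.1. Dusp4 in cxC26 IL-6 KO s1 tumor 4 was at 6.83 log2 CPM and the remaining knockout tumors at 6.32 to 6.39, a gap of 0.856 of the range. Dusp5 in cxC26 IL-6 KO s1 tumor 3 was at 4.71 log2 CPM and the remaining ones at 4.97 to 5.0 (0.867). Etv1 in cxC26 scr tumor 4 was at 7.60 log2 CPM and the remaining control tumors at 7.32 to 7.35 (0.895). Il6 in cxC26 IL-6 KO s1 tumor 3 was at 2.46 log2 CPM and the remaining ones at 1.99 to 2.04 (0.894).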

How the results depend on the processing

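Dusp4, Spry4, Spred1 and Etv4 kept their direction and their limma call under every alternative run except the 2-fold minimum, under which 0 members rose and 0 fell (1 and 5 without it) although 2 and 5 had an unadjusted p under 0.05 for a difference from 0. The 2-fold minimum also cut the calls in the related lists from 12 to 3 higher and from 26 to 10 lower. The number of members that rose by limma, 1, was 0 without the filter (2 at an unadjusted p under 0.05), 0 with chromosome medians subtracted (1 at that level) and 2 after quantile normalization. With chromosome medians subtracted, the members' median difference moved from -0.26 to -0.46, 7 members fell instead of 5, Dusp6 turned to -0.28, and 0 of the 9 balance pairs passed instead of 6 (4 at an unadjusted permutation p under 0.05). The cause was not tested. Leaving out each tumor in turn gave 0 to 2 members higher, 4 to 5 lower, a median difference of -0.33 to -0.22, 10 to 13 related genes higher, 22 to 26 lower, and 0 to 6 balance pairs. Tumors with the same number did not deviate together (correlations from -0.06 to 0.06), which does not exclude a pairing for single genes. The labels do not say that the numbers pair tumors. With the number as a replicate block 1 member rose and 5 fell as before, and no member's call changed. The adjusted p was larger than in the main fit for Etv4 (-0.82, limma adjusted p = 0.000319) and smaller for Spry1 (0.68, limma adjusted p = 0.00123). Counting error bears most on Spry1 in control tumor 2, the member value with the fewest reads (293).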
